A study of Homo sapiens with 16 samples.

Results

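The 7435 regions described here were open, as ATAC-seq peaks, in MDA-MB-231 cells of the ancestral population grown on stiff gel and had no peak in the 3 other groups of the study. MDA-MB-231 is an established human cell line derived from a breast adenocarcinoma, and ATAC-seq uses a transposase that cuts DNA where chromatin is accessible. The regions were chosen by the presence or absence of a called peak in 4 lists: peaks on chromosomes 1 to 22 were merged where they overlapped by at least 1 bp, and a merged region was kept when the ancestral stiff list alone contributed to it. Each list skips some of its own peak numbers, so 509 of 7944 such regions were left out because another list skips a number there and a peak could be missing from it. The 7435 members made up 4.61% of 161185 merged regions and 6.58% of the 112949 peaks of the ancestral stiff list (95% interval 6.44% to 6.73%). They covered 2.90 Mb of the 126 Mb that the list spans.

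The study has 16 samples in 4 groups of 4, all of wild-type MDA-MB-231 cells on polyacrylamide gels coated with type I collagen. Ancestral cells were assayed on gels of 1 kPa (soft) and 308 kPa (stiff), and selected cells, which had been replated at 20000 cells onto fresh gel of unchanged stiffness for 75 days, were likewise assayed on both. The labels do not say in full on which gel the selected cells of the stiff group had been selected, so that group is called selected cells on stiff gel. The data hold 1 peak list per group. A single list carries no replicate spread, so p-values are not given, and the exact Clopper-Pearson 95% intervals given with shares cover counting error only.

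Accessible regions in a nucleus are of a few kinds. Promoters of broadly used genes lie in CpG-rich DNA and are open in most cells and conditions, while distal elements such as enhancers vary more between states. Stiff substrates are known to load integrins and the actin cytoskeleton, and the factors best known to respond are YAP and TAZ with their DNA-binding partners of the TEAD family, the serum response factor SRF with its actin-sensing cofactor MRTF, and AP-1. The motifs of these factors were therefore looked for where a sequence could be read.

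A promoter sequence could be read for members that cover the start of a gene. The RefSeq table for GRCh38.p14 holds 250 bases before and 50 bases after a start, and 43 such windows of 42 genes overlapped a member. Shown first are the 3 strongest members that cover a whole window. The bases printed are the 250 before the start, on the strand of the gene. They are, in order, chr15:28885724-28885973 on the plus strand, chr6:77403354-77403603 on the plus strand and chr22:23632322-23632571 on the minus strand, and capitals mark an AP-1 motif (TGANTCA).
APBA2: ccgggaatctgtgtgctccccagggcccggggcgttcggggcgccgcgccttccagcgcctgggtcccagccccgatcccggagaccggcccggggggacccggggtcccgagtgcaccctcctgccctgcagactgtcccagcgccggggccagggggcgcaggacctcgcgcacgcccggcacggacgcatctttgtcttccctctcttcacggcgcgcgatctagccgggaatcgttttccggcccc
LOC105377864: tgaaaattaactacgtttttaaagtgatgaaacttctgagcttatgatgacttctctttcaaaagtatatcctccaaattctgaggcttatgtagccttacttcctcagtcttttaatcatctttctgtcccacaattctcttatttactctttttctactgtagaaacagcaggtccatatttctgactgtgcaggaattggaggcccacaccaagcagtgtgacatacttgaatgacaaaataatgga
DRICH1: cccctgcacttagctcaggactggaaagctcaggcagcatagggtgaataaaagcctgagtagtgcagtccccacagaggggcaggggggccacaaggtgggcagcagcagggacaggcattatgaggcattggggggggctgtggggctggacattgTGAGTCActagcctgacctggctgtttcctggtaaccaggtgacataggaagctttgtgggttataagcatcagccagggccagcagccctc
APBA2 encodes an adaptor that binds the amyloid precursor protein. Its promoter was 74.4% G or C with 30 CpG dinucleotides, the composition of a CpG island, and held none of the motifs searched. LOC105377864 is a predicted gene whose promoter was 36.4% G or C with 1 CpG. The DRICH1 promoter was 58.4% G or C without a CpG, and its AP-1 motif began 92 bases before the start. The 3 peaks had fold enrichments of 5.84, 4.71 and 3.53 in the ancestral stiff list.

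Shorter stretches are shown for the other members whose peak holds a motif inside the promoter window, to let the sites be compared. Capitals mark the motif, each stretch reads along the strand of its gene, and a TEAD motif (GGAATG) on the other strand reads CATTCC.
MAN1C1, first AP-1 site: gagaggagTGAGTCAgggtgtct
MAN1C1, second AP-1 site: gtaggagaTGATTCAtattgaaa
SBSN, first AP-1 site: ggggtaatTGAGTCAtgaggggt
SBSN, second AP-1 site: tccatccaTGACTCAccctctct
LIMCH1, TEAD site: cctcagagGGAATGggcttctc
C21orf58, TEAD site: gttataaaCATTCCacatcaag
SCGB2A1, TEAD site: cattgcctCATTCCtgggaggg
ZBTB20, TEAD site: ccagtgttCATTCCaatctcat
LNX1, TEAD site: acccacaaGGAATGaga
FILIP1, CArG box: gcagaagtCCTTAAAAGGgcctgccg
The AP-1 sites began 123 and 75 bases before the start of MAN1C1 (chr1:25696024-25696046 and chr1:25696072-25696094), an enzyme of N-glycan trimming, and 71 and 173 bases before the start of SBSN (chr19:35528368-35528390 and chr19:35528470-35528492), a secreted epithelial protein. The TEAD site of LIMCH1 (chr4:41538076-41538097), which encodes an activator of non-muscle myosin II, began 73 bases before its start. The other TEAD sites began 16 bases before the start of C21orf58 (chr21:46320828-46320849), 66 before SCGB2A1 (chr11:62208599-62208620) and 12 before ZBTB20 (chr3:114745981-114746002), and 41 bases past the start of LNX1 (chr4:53591437-53591453). The CArG box, the element that SRF binds, began 176 bases before the start of FILIP1 (chr6:75493959-75493984), which encodes a filamin-interacting protein.

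Over all 43 windows on members, the TEAD motif was present in 8 (18.6%, 8.39% to 33.4%), against 12.2% of all 21156 windows of protein-coding genes in the table. AP-1 was present in 4 (9.30%, 2.59% to 22.1%), against 6.08%. The CArG box, searched by its usual consensus, was present in 2 (4.65%, 0.568% to 15.8%), against 1.25%. All motifs were searched on both strands, and the 3 shares on all windows lie inside the wide intervals of the members. These counts take the whole window, of which a member can cover only a part. The motif lay inside the member itself at 5 genes for TEAD, 3 for AP-1 and 1 for the CArG box. The GC box (GGGCGG), which is typical of CpG island promoters, was present in 37.2% of the windows on members (23.0% to 53.3%) and in 70.6% of 13077 windows on regions open in all 4 groups (69.9% to 71.4%). The median G or C content was 53.7% on members, 65.7% on regions of all 4 groups and 62.7% in the whole table, and the ratio of observed to expected CpG was 0.308, 0.833 and 0.743. The few promoters among the members were thus poorer in CpG and GC boxes than promoters open in every group, in a comparison not matched for peak strength. This was not particular to members. The 11 windows on regions of ancestral soft alone had a GC box in 9.09% (0.230% to 41.3%), a median G or C content of 49.7% and a CpG ratio of 0.207. In the whole table, 56.6% of windows had a GC box. A match of letters is a description and does not show that the factor binds.

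The members were weak and narrow peaks. Their median fold enrichment was 2.87 (quartiles 2.40 to 3.63, range 1.79 to 49.2), where the authors' fold enrichment divides the pileup of fragments at the summit plus 1 by a background plus 1. Ancestral stiff peaks in regions open in all 4 groups had a median of 11.4, those in both ancestral lists alone 3.82, and those in both stiff lists alone 3.06. The median width was 352 bp for members and 1056 bp for peaks of all 4 groups. The regions of the other single lists were weak and narrow too, with median fold enrichments over their own backgrounds of 2.48 in ancestral soft, 2.42 in selected soft and 2.42 in selected stiff, and median widths of 381, 463 and 387 bp. Members lay at the low end of their own list in both measures, and both bear on whether a peak is called at all, so these values describe the rule.

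**Figure D1:**
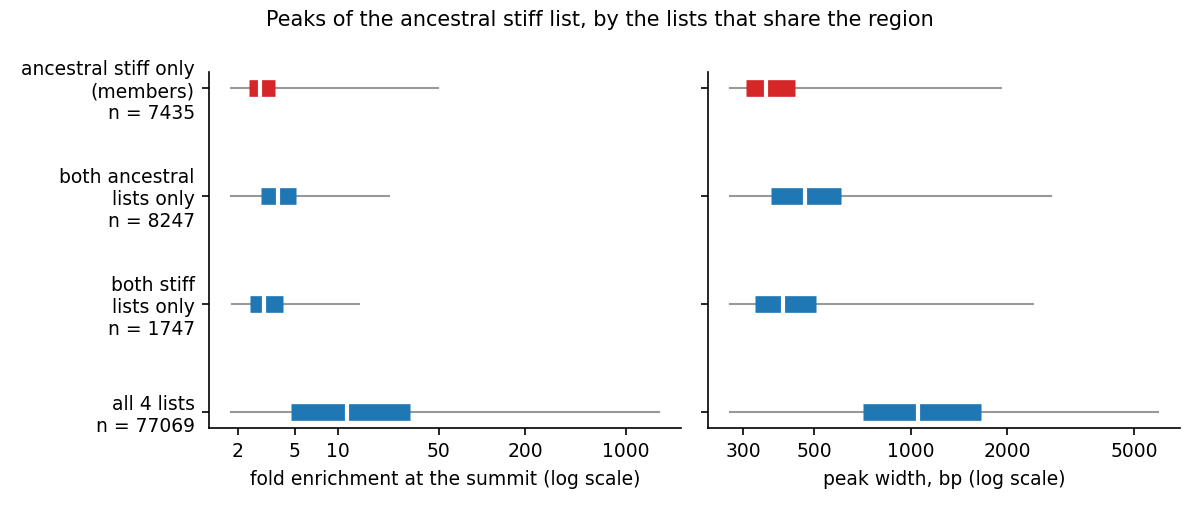
Fold enrichment at the summit and peak width in bp, both on log axes, for peaks of the ancestral stiff list in 4 sets. Grey lines span the range, bars the quartiles, and the white tick is the median. Members have the lowest median fold enrichment (2.87) and the smallest median width (352 bp) of the sets shown, and a single member reaches 49.2.

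The pileup of members had a median of 60 fragments (50 to 76, from 37 to 1044), and their −log10 q-value a median of 11.1 (6.67 to 19.6), with 4219 members (56.7%) at 10 or above. The 4 lists differ in depth. The background pileup was 20.2 in the ancestral stiff list, against 16.3 in ancestral soft, 13.5 in selected soft and 12.6 in selected stiff. At these backgrounds a peak with the members' median fold enrichment had a −log10 q-value of 11.1 in the ancestral stiff list, 9.16 in ancestral soft, 7.76 in selected soft and 7.11 in selected stiff. Such a peak would have passed the lowest q-value listed in any of them, which was between 2.01 and 2.21. This reading leaves out width. The narrowest region was 272 bp among members, and 284, 312 and 276 bp among regions of ancestral soft, selected soft and selected stiff alone. Of the members, 1587 (21.3%) were at most 300 bp wide, against 2.30% of the list's peaks shared with another list. The lowest fold enrichment listed was 1.79 in ancestral stiff and at most 1.98 elsewhere, and 7117 members (95.7%) lay above 1.98. The part of depth and of width in the absence of single members from the other lists was not tested.

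Members were most frequent among weak peaks. They were 14.9% of ancestral stiff peaks with a fold enrichment below 2.25, 16.9% of those from 2.5 to 3, 5.70% of those from 4.5 to 6 and 1.39% of those from 6 to 10. Only 1313 members reached a fold enrichment of 4, 520 reached 5, 50 reached 8, 13 reached 10 and 3 reached 15. At 10 or above the list holds 43165 peaks, of which members were 0.0301%.

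**Figure D2:**
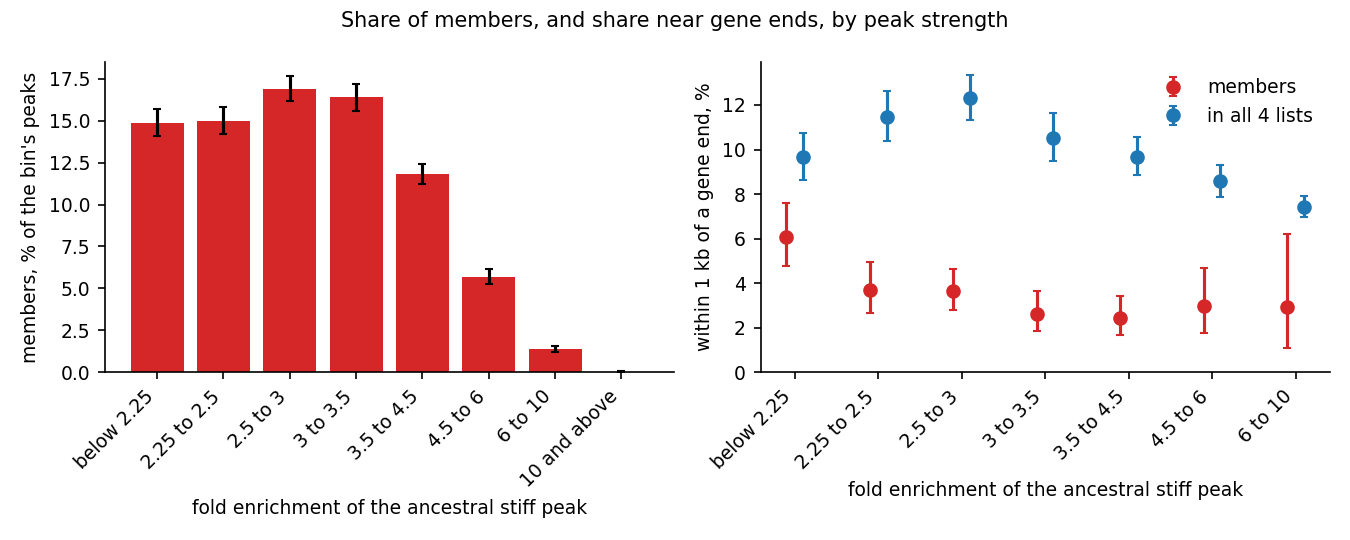
Left, members as a percentage of the ancestral stiff peaks in each bin of fold enrichment. Right, the percentage of members and of peaks in regions of all 4 groups that lie within 1 kb of the end of a protein-coding gene, up to a fold enrichment of 10. Error bars are exact 95% intervals. The share of members is 14.9% to 16.9% in the bins below 3.5 and falls to 1.39% from 6 to 10, and members lie below the peaks of all 4 groups in each bin of the right panel.

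Members lay mainly away from gene ends. The summit of 3375 members (45.4%, 44.3% to 46.5%) was inside a protein-coding gene, and 1540 (20.7%) were more than 100 kb from any. Exons and introns could not be told apart with the gene table used. Regions open in ancestral cells on soft gel alone were inside a gene in 21.6% of cases, and those open in selected cells alone in 57.5% on soft gel and 58.7% on stiff gel. Over 100 kb from a gene lay 59.7% of the ancestral soft regions, 9.19% of the selected soft regions and 7.14% of the selected stiff regions. Members thus stood between the ancestral soft set and both selected sets by position, with intervals that do not overlap those of the other 3. Summits in long noncoding RNA genes were 16.2% of members (15.4% to 17.1%) and 14.3% of peaks of all 4 groups.

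A part of the peak was within 1 kb of an end of a protein-coding gene in 266 members (3.58%, 3.17% to 4.03%). Of all ancestral stiff peaks at such ends, members were 1.6%. The same share of gene ends was 18.4% among peaks of all 4 groups. Peaks of all 4 groups were at gene ends in 7.43% to 12.3% of cases in the bins of fold enrichment below 10 and in 26.3% at 10 or above, and the comparison was repeated at equal strength. From 2.5 to 3 in fold enrichment, 3.64% of members (2.80% to 4.65%) and 12.3% of peaks of all 4 groups (11.3% to 13.3%) were at a gene end, and the median widths were 340 bp and 743 bp. The difference was smallest below 2.25, at 6.06% and 9.67%. Members were therefore narrower and less often at gene ends than peaks of equal fold enrichment that were open in every group.

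Most members had peaks of other groups in their surroundings. The median distance to the nearest peak of any other list was 4447 bp. It was under 500 bp for 568 members (7.64%) and under 10 kb for 5093 (68.5%). The 162 members without any such peak within 100 kb had a median fold enrichment of 2.97, against 2.87 for all. In the ancestral stiff list itself, 5951 members (80.0%) had a peak that was not a member on either side. The longest runs without another peak between them were 7 and 6 members on chromosome 16 and 6 members near PID1 on chromosome 2 (chr2:228600275-228732017). The runs on chromosome 16 (chr16:36994948-37150700 and chr16:37268164-37326413) lay in the repeat-rich surroundings of the centromere. Their median fold enrichments were 2.17 and 2.05, against 3.18 in the run near PID1.

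The strongest member stood apart from all others. It lay at chr10:128464363-128464634 in no annotated gene, 338 kb from MKI67, the gene of the proliferation antigen Ki-67. Its pileup was 1044 fragments, its fold enrichment 49.2 and its −log10 q-value 1344. Its width of 272 bp was the smallest in the list, a width that 144 peaks had, 50 of them members. Of 43165 peaks with a fold enrichment of at least 10, which had a median width of 1387 bp, 4 were at most 300 bp wide, and this was the 1 member among them. The nearest other peak lay 165 kb away in its own list and 177 kb away in the other lists.

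The next members by strength lay at varied genes. A member inside SBF2, which encodes a myotubularin-related regulator of endocytic traffic, had a pileup of 366 and a fold enrichment of 17.3 (chr11:10249614-10250003). A member 34.0 kb from the zinc finger gene MZF1 had 334 and 15.8 (chr19:58607297-58607621), but a peak of another list began 486 bp away. Another zinc finger gene, ZNF675, was the nearest, at 126 kb, to a member inside the long noncoding RNA gene LOC105372337 with a fold enrichment of 13.8 (chr19:23526224-23526876). The remaining members of the first 10, with fold enrichments from 10.9 to 12.0, were near PGM2, a phosphoglucomutase gene, CTSC, which encodes the protease cathepsin C, TSPAN2, a tetraspanin gene, and CSNK2A1, which encodes a catalytic subunit of casein kinase 2, inside the matrix protein gene ABI3BP, and at an end of SNN. Of these 10 regions, 5 overlapped no annotated gene and 3 overlapped a protein-coding gene.

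At gene ends, the strongest members were the one at SNN, which encodes the small membrane protein stannin (chr16:11667950-11668488, pileup 232, fold enrichment 11.0), and one 0.645 kb from an end of the nucleoporin gene NUP98 (chr11:3673926-3674617, pileup 169, fold enrichment 8.01). The third was at GNE (chr9:36276878-36277172), which encodes the enzyme that starts sialic acid synthesis. It had a pileup of 156 and a fold enrichment of 7.40, and its summit lay 89 bases from the annotated start. SNN and GNE had no end peak in the 3 other lists, whereas NUP98 had 1 in each, at some distance from the member. The nearest peak of another list lay 1007 bp from the SNN member, 17612 bp from the GNE member and 1546 bp from the NUP98 member.

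Among the next members at gene ends, SPRR1B, a gene of the cornified envelope of keratinocytes (fold enrichment 6.27), and APBA2 (5.84) also had no end peak in another list. The nearest peak of another list lay 25596 and 1128 bp from these members. TPPP2, a gene of a tubulin-binding protein family next to NDRG2 (7.11), PXYLP1, a phosphatase gene of glycosaminoglycan synthesis (6.83), KHDC4, an RNA-binding protein gene (6.41), and RBPMS2, a further RNA-binding protein gene (5.80), each had an end peak in at least 1 other list. In all, members lay at ends of 268 genes, of which 83 had no end peak in the 3 other lists. The summit was within 1 kb of an annotated start in 61 of the 216 cases with a start in the table.

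Promoter windows were reached by 42 members (0.565%), against 12.4% of peaks of all 4 groups. The latter share depends on strength, with 0.704% to 3.23% in the bins of fold enrichment below 10 and 21.0% at 10 or above. At equal strength, 0.768% of members and 0.704% of peaks of all 4 groups reached a window below 2.25, and 0.588% and 2.02% from 2.5 to 3. Members had the lower share in each bin from 2.25 to 10. After GNE and APBA2, the strongest of the 42 members were at RBPMS2 (5.80), LIMCH1 (5.70) and KLF7, which encodes a Krüppel-like transcription factor (5.47). Some weaker ones are named here after their values were seen, because their genes act on the cytoskeleton or in signalling. They were at LPXN, which encodes the focal adhesion protein leupaxin (2.92), KANK1, which links adhesions to microtubules (2.64), WNT5A, a ligand of noncanonical Wnt signalling (2.54), CLASP2, which stabilises microtubule plus ends (2.31), and DUSP10, a phosphatase of stress kinases (1.98). A promoter window in the table can belong to 1 of several starts of a gene, so other starts of these genes can be open in every group.

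Members were assigned to the nearest protein-coding gene within 100 kb of the summit, which placed 5895 members at 4130 genes. Of all 95708 ancestral stiff peaks assigned in this way, members were 6.16%. Most of these genes (2998) had a single member, and 385 had 3 or more.

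KAZN, which encodes the desmosome-associated protein kazrin and is a long gene of 1225 kb, had the most members, 15 of 74 peaks. All lay inside the gene, between chr1:14037168 and chr1:15106930, with pileups from 40 to 123 and a median fold enrichment of 3.06. It was not a site of ancestral stiff regions alone, since 28 regions of selected soft and 10 of selected stiff were also found there in 1 list only.

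SMAD3, which encodes a transcription factor that carries TGF-beta signals, had 7 members of 37 peaks and no region of the other 3 single lists. The strongest lay 68.2 kb outside the gene (chr15:66997247-66997553) with a pileup of 175 and a fold enrichment of 8.29. The other 6 lay inside it, with pileups of 42, 48, 43, 60, 43 and 52 in order of position and fold enrichments from 2.03 to 2.87. A single strong member outside the gene was thus accompanied by weak ones within it.

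CDC42EP3, which encodes an effector of the GTPase CDC42, likewise had 7 members of 26 peaks and no region in another single list. Their pileups were 74, 50, 40, 60, 43, 61 and 44 in order of position, and 4 of the members were inside the gene. SH3TC2, which encodes a protein of recycling endosomes, had 7 members of 33 and none in another single list. Here 6 pileups lay between 68 and 78 and the remaining one, at chr5:148937075-148937662, reached 173. The 3 genes share the absence of regions in the other single lists, but only at SH3TC2 did all members pass a −log10 q-value of 10.

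Members were also frequent at further genes. KCNIP4, which encodes a modulator of potassium channels, had 9 of 36 peaks, ADAMTSL1, a secreted matrix protein gene, 8 of 26, and NAV2, which encodes a neuron navigator, 8 of 52. LRRC7, which encodes a scaffold protein of synapses, had 7 of 17 peaks, or 41.2%. NRG1, which encodes a ligand of ERBB receptors, and PRAG1, which encodes a pseudokinase, had 7 of 30 each, both on chromosome 8. All genes named for their counts were chosen by those counts, so the counts are a description.

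Genes of lists on mechanics, matrix, signalling and cell state were then read against the 6.16% of all assigned peaks. The listed genes, cell type markers included, had 230 members of 3365 peaks (6.84%, 6.01% to 7.74%), close to all genes. The median fold enrichment of all members, to be read beside those of the lists, was 2.87. The peaks of a gene and of its neighbours are not independent, so the intervals are too narrow to set a list apart.

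**Figure D3:**
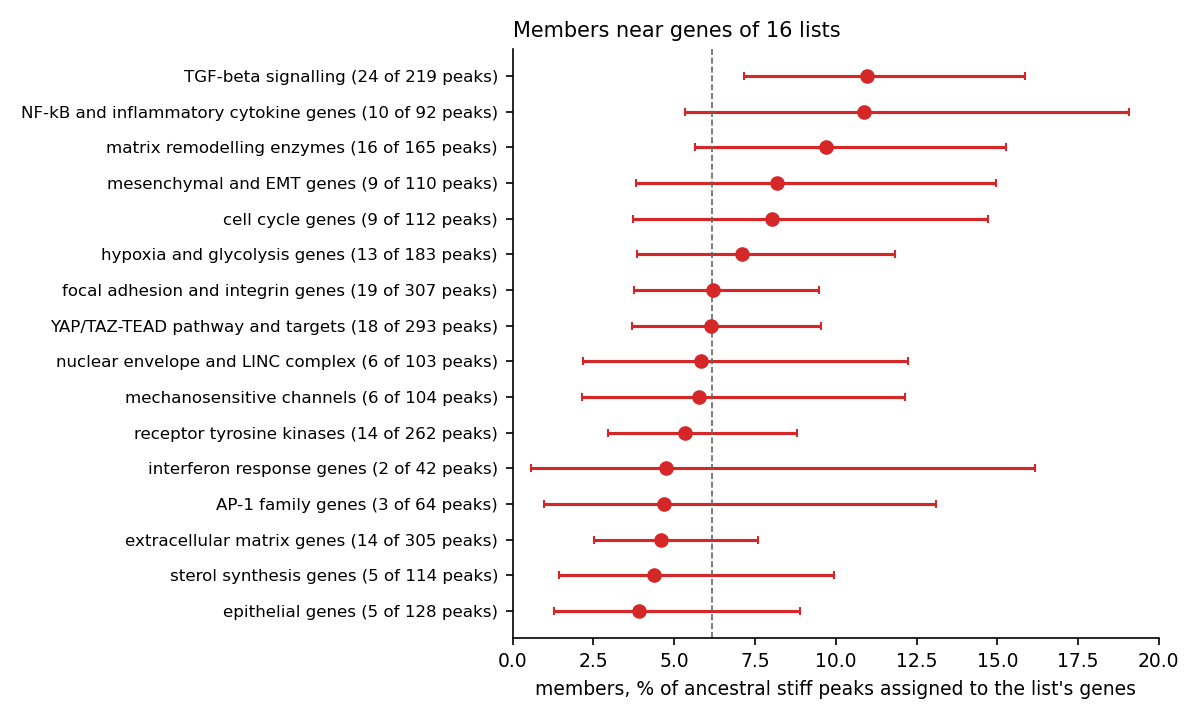
Members as a percentage of the ancestral stiff peaks assigned to the genes of each of 16 lists, with exact 95% intervals. The dashed line is the 6.16% of all peaks assigned to protein-coding genes. TGF-beta signalling lies highest at 11.0% and epithelial genes lowest at 3.91%, and the intervals of 15 lists include the dashed line.

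TGF-beta signalling genes had 24 members of 219 peaks (11.0%, 7.15% to 15.9%) at 11 of 17 genes, with a median fold enrichment of 2.64. After SMAD3, most were at TGFB2, which encodes a TGF-beta ligand and had 5 of 26 peaks. Its members had pileups of 56, 52, 67, 120 and 52, and the strongest lay 33.9 kb from the gene. The transducer gene SMAD2, the inhibitor gene SMAD6 and the coreceptor gene TGFBR3 had 2 members each, and the receptor gene TGFBR1, SMAD7, which encodes a further inhibitor, TGFB3, BMP4, INHBA and LTBP1 had 1 each. SMAD3 and TGFB2 together held 12 of the 24.

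Genes of NF-kB and inflammatory cytokines had 10 members of 92 peaks (10.9%, 5.34% to 19.1%) at 8 of 17 genes, with a median fold enrichment of 2.85. NFKBIA, which encodes the NF-kB inhibitor I-kappa-B alpha, had 3 of 16. A member 39.3 kb from CXCL8, the interleukin 8 gene, was the strongest (chr4:73701198-73701483, pileup 131, fold enrichment 6.22), and one 12.1 kb from the chemokine gene CXCL1 had 90 and 4.29. CCL2, IL6, NFKB1, REL and RELB had 1 member each. Of these 10 members, 2 were inside their gene.

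Matrix remodelling enzymes had 16 members of 165 peaks (9.70%, 5.64% to 15.3%) at 6 of 21 genes, with a median fold enrichment of 3.02. ADAM12, a membrane metalloprotease gene, had 5 of 26 with pileups of 79, 50, 85, 127 and 69, and MMP16, a membrane-type matrix metalloprotease gene, had 5 of 22 with pileups from 58 to 99. TIMP2 and TIMP3, which encode inhibitors of such enzymes, had 2 each, and MMP1 and PLAUR 1 each. Extracellular matrix genes had a lower share, with 14 of 305 (4.59%, 2.53% to 7.58%) at 11 of 21 genes and a median fold enrichment of 2.94. There COL1A2, COL5A1 and TNC had 2 each, and the strongest member lay 26.1 kb from the proteoglycan gene VCAN (fold enrichment 6.03).

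Members also lay at genes of the actin cytoskeleton and at SRF/MRTF targets. ACTN1, the alpha-actinin gene, had 3 of 26 peaks, and MRTFA, which encodes the actin-sensing SRF cofactor, MYLK, the gene of a myosin light chain kinase, and the tropomyosin gene TPM1 had 2 each, of 18, 25 and 16 peaks. The strongest of these members were in MRTFA (chr22:40512428-40512760, pileup 141, fold enrichment 6.69) and in MYLK (chr3:123813852-123814384, pileup 113, fold enrichment 5.37). The 4 genes were chosen by their counts, which are to be read beside the 6.16% of all assigned peaks. ACTN1 also had 8 regions of selected soft alone and 4 of selected stiff alone, and MRTFA 1 of ancestral soft alone. MYLK and TPM1 had no region in another single list.

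Over peaks of all strengths, lists that stand for stiffness sensing were near the share of all genes. YAP/TAZ-TEAD pathway genes and targets had 18 of 293 (6.14%, 3.68% to 9.54%), of which 6 were at CRIM1, a YAP/TAZ target gene for a transmembrane regulator of BMPs, and 5 at TGFB2, which is on this list too. The median fold enrichment of this list was 2.61. The CRIM1 members had pileups of 51, 49, 46, 99, 69 and 48. Focal adhesion and integrin genes had 19 of 307 (6.19%, 3.77% to 9.50%) with a median fold enrichment of 3.16, and 5 each were at TLN2, a talin gene, and at TNS3, a tensin gene. The TLN2 members all lay inside the gene with pileups of 54, 136, 88, 59 and 77, and TLN2 had no region in another single list, while TNS3 also had 21 regions of selected soft alone. Mechanosensitive channel genes had 6 of 104 (5.77%), 3 of them at PIEZO2. Nuclear envelope and LINC complex genes had 6 of 103 (5.83%), with 2 at TMPO. Among weak peaks alone, with a fold enrichment below 4, the whole ancestral stiff list had 15.6% members. The YAP/TAZ-TEAD list there had 25.4% of 63 peaks, and focal adhesion and integrin genes 14.9% of 94. Mechanosensitive channel genes had 9.80% of 51, and nuclear envelope and LINC complex genes 12.5% of 32.

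Over the remaining lists, which stand for cell state and metabolism, the median fold enrichment ran from 2.12 for sterol synthesis and interferon response genes to 3.44 for epithelial genes. Mesenchymal and EMT genes had 9 of 110 (8.18%), led by TWIST2 with 3 and by CD44 and SNAI2 with 2 each, and epithelial genes had 5 of 128 (3.91%), with 2 at CDH1, the E-cadherin gene. Cell cycle genes had 9 of 112 (8.04%), 3 at TOP2A and 2 at CCND1, and hypoxia and glycolysis genes 13 of 183 (7.10%), 3 at HIF1A, and 2 each at HK2 and SLC2A1. Receptor tyrosine kinases had 14 of 262 (5.34%), 3 at FGFR1 and 2 each at EGFR, PDGFRA and ROR1. Sterol synthesis genes had 5 of 114 (4.39%), AP-1 family genes 3 of 64 (4.69%) and interferon response genes 2 of 42 (4.76%), with no more than 1 at any gene.

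Of the listed genes, 10 had a member within 1 kb of an end. These were NUP98, ADAM12, TNC, ARHGAP29, KRT5, TOP2A, RSAD2, HMGCS1, TIMP2 and MCM2, with fold enrichments from 2.03 to 8.01. ARHGAP29, which encodes a GTPase-activating protein (chr1:94167869-94168708, pileup 60), and KRT5, a basal keratin gene (chr12:52521293-52521995, pileup 51), had no end peak in the 3 other lists. The remaining 8 had an end peak in each of the other lists. The nearest peak of another list lay 774 bp from the ARHGAP29 member and 13901 bp from the KRT5 member.

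The ancestral stiff list was checked against markers of cell types. Of 8 markers of MDA-MB-231 and mesenchymal tumour cells, 5 (VIM, AXL, EGFR, CAV1 and PLAUR) had a peak at a gene end and 3 lay at a skipped number and could not be read. An end peak was present at 9 of 10 luminal markers, not at ESR1, and at 5 of 7 basal, 4 of 10 blood cell, 5 of 8 fibroblast, 1 of 6 endothelial and 5 of 6 neuron markers. Markers with an end peak included the blood cell genes CD3E, CD79A, PAX5 and SPI1, the endothelial gene KDR and the basal genes KRT5, KRT17, ACTA2, CNN1 and OXTR. In the same lists, PTPRC, PECAM1, CDH5, VWF, TP63 and KRT14 were among those with none. Accessible ends do not show that a gene is expressed. The list held 16623 peaks within 1 kb of an end of a protein-coding gene. The gene table holds 19126 such genes outside the sex chromosomes. The share of all genes with an end peak was not taken, so the marker counts are a description and do not set a cell type apart. Member shares at these markers ranged from 6.45% of 31 peaks for basal markers to 12.3% of 65 for fibroblast markers, with 7 of 57 for blood cell markers and 6 of 75 for endothelial markers. The part of other cells in the members was not tested.

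Members were unevenly spread over chromosomes. They were 11.0% of the ancestral stiff peaks on chromosome 13 (219 of 1984, 9.69% to 12.5%), 10.5% on chromosome 4 (9.59% to 11.4%) and 9.63% on chromosome 18 (8.44% to 10.9%). The lowest shares were 2.95% on chromosome 19 (174 of 5895, 2.53% to 3.42%), 3.69% on chromosome 20 (3.12% to 4.32%) and 4.45% on chromosome 17 (3.94% to 5.00%). Among weak peaks alone, with a fold enrichment below 4, where the whole list has 15.6% members, chromosome 13 had 29.2% and chromosome 19 had 6.37%. This split by strength was added after the data were seen. Among weak peaks as among all peaks, chromosome 13 was the highest and chromosome 19 the lowest of the 22.

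Regions of ancestral soft alone shared part of this order. They were 3.86% of that list over chromosomes 1 to 22, 14.6% on chromosome 18, where they were most frequent, 5.50% on chromosome 13, which came second, and 4.41% on chromosome 4. Their lowest shares included chromosomes 17 and 19, at 1.30% and 2.20%, while chromosome 20 had 4.34%. Selected soft regions were 5.32% of their list on chromosome 13, 7.77% on chromosome 4 and 27.1% on chromosome 20, against 16.4% over chromosomes 1 to 22. Chromosomes 13 and 4 were thus high for members and low for selected soft regions, and chromosome 20 the reverse. Cell lines such as MDA-MB-231 carry unequal copy numbers, and copy number and accessibility cannot be told apart in peak lists.

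**Figure D4:**
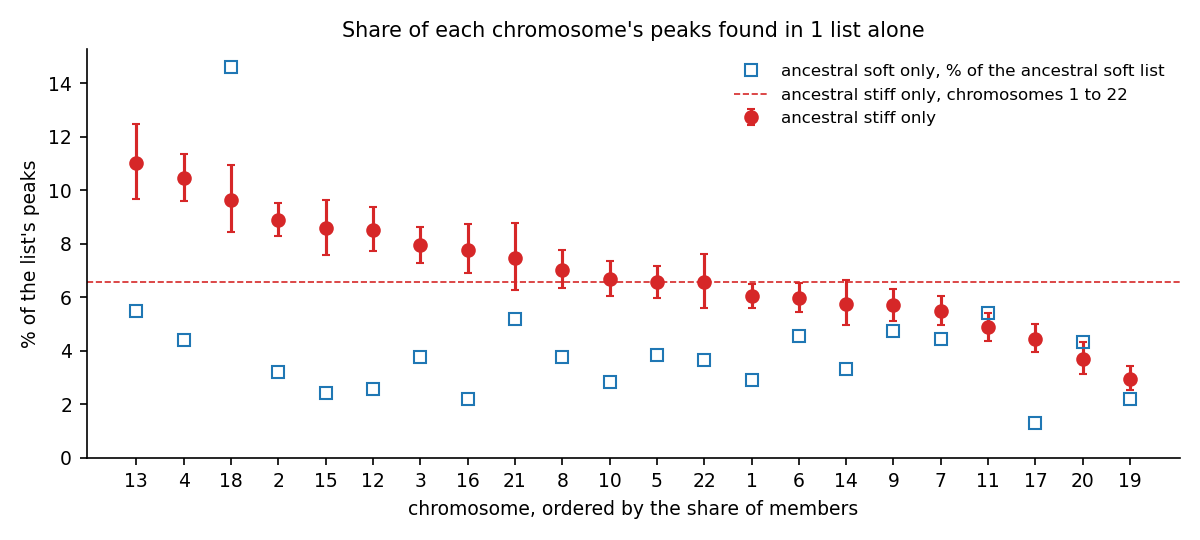
Members as a percentage of the ancestral stiff peaks on each chromosome (filled circles, exact 95% intervals), and regions of ancestral soft alone as a percentage of the ancestral soft list (open squares). The dashed line is the share of members on chromosomes 1 to 22 (6.58%). Chromosomes 13, 4 and 18 lie highest for members and 17, 20 and 19 lowest, and chromosome 18 is also the highest for ancestral soft at 14.6%.

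In windows of 5 Mb the median was 13 members over 570 windows with a peak. The window with the most was on chromosome 16 from 35 to 40 Mb, where 52 of 104 peaks were members with a median fold enrichment of 2.43. They lay between chr16:36392906 and chr16:38162560, in the repeat-rich surroundings of the centromere, and this window also held 39 regions of ancestral soft alone, 5 of selected soft and 2 of selected stiff. Windows at the centromeres of chromosomes 2 (90 to 95 Mb) and 3 (90 to 95 Mb) had 32 members each, but 93 and 87 regions of ancestral soft alone. How reads that match several places were treated is not given in the sources used here, and its part in these windows was not tested.

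Other windows lay away from centromeres. On chromosome 2 from 225 to 230 Mb, 33 of 141 peaks (23.4%, 16.7% to 31.3%) were members, with 0 regions of ancestral soft, 2 of selected soft and 1 of selected stiff alone. This window holds IRS1, which encodes an adaptor of the insulin receptor, and PID1, an adaptor gene beside the run of 6. IRS1 was the nearest gene to 8 of the members, but only 3 of them lay within 100 kb of it. On chromosome 2 from 35 to 40 Mb, the window of CRIM1 and CDC42EP3, 32 of 201 were members against 3, 3 and 2 regions of the other lists. The windows on chromosome 21 from 35 to 40 Mb and on chromosome 15 from 65 to 70 Mb, which holds SMAD3, had 34 and 33 members of 257 peaks each, and 7 and 2 of ancestral soft, 8 and 18 of selected soft, and 10 and 11 of selected stiff.

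**Figure D5:**
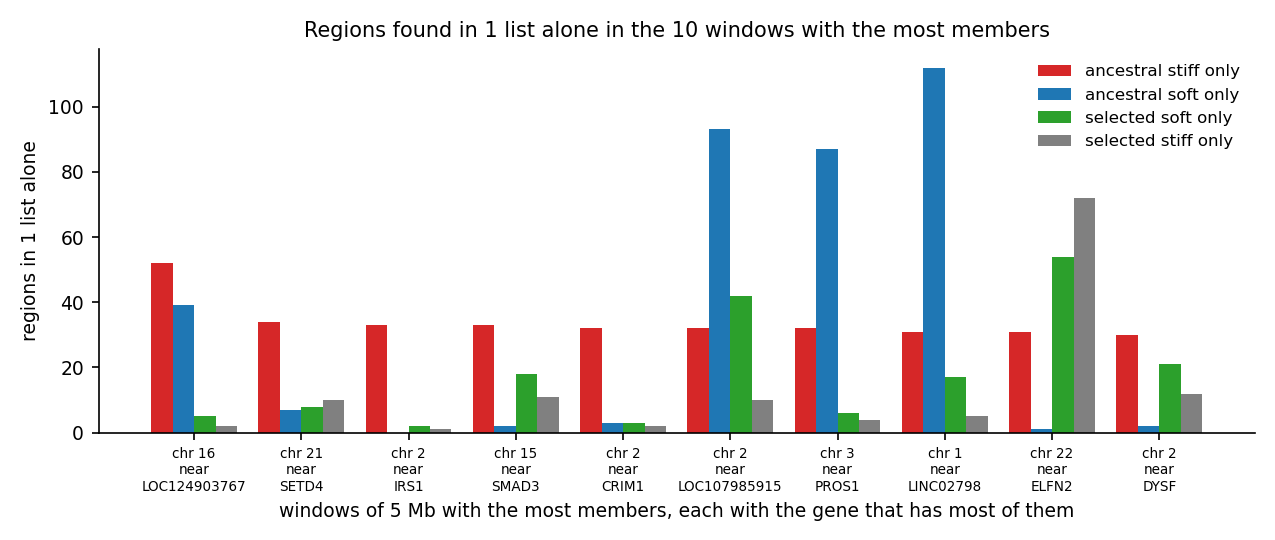
Regions found in 1 list alone, as counts, in the 10 windows of 5 Mb with the most members. Each is labelled with its chromosome and the gene nearest, at any distance, to the largest number of its members. Bars show the 4 lists. Members outnumber the other bars in the windows near IRS1, SMAD3 and CRIM1, while ancestral soft regions prevail in those near LOC107985915, PROS1 and LINC02798.

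The limits of the rule show which regions were close calls. The members closest to a peak of another list lay 1 bp from it, near JPH3 (fold enrichment 2.83), near DTX2 (1.98) and in PIK3CD (1.93), and 7 members lay within 10 bp. Just outside, ancestral stiff peaks near SETD4 (2.07), 195 kb from NPHP4 (1.88) and in INPP5A (3.86) overlapped another list by 2, 3 and 4 bp. In all, 28 such peaks had an overlap of 10 bp or less. The lowest −log10 q-value among members was 2.21, reached by 4 members, and 103 members were below 3. Examples of the 4 were those in SYT6 and SRCIN1 and one whose nearest gene, KCNJ18, lay 1576 kb away. The widest member measured 1920 bp and lay on chromosome 13, 2766 kb from TUBA3C, its nearest gene. The next measured 1901 bp (near SH3D19) and 1762 bp in GATA6, which encodes a transcription factor of endoderm and heart.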

How the data were processed

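Per the labels, nuclei came from 200000 cells and libraries from 50000 nuclei. For peak calling, MACS2 2.2.7.1 is named in the submitters' processing notes. They also list Bowtie2 2.4.5, Trimmomatic 0.36 and, as quality tools, MultiQC 1.1 and FastQC 0.11.4, with the build GRCh38. The authors deposited 1 peak list per group, and per the file headers each peak has a width, the pileup signal at its summit, −log10 p- and q-values and a fold enrichment, which is a ratio to a single background per list. Options and filters of the caller, and the way 4 libraries became 1 list, are not given in these sources. The depth of single samples is not given in the columns used, so the background pileup is the measure of depth. The −log10 p-values were not used.

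Peaks were merged and assigned to genes with pandas 2.3.3 and numpy 2.4.6 under python 3.11.15, intervals came from scipy 1.17.1 and figures from matplotlib 3.10.9, after the steps were tested on simulated data. Skipped numbers were located between the neighbouring peaks of each list, and lone regions there were left out. Summits were assigned to the nearest protein-coding gene of a GRCh38.p14 table within 100 kb, and a gene end is within 1 kb of either annotated end. All 359 listed symbols matched, 353 of them on chromosomes 1 to 22. Promoter windows and sequences came from RefSeq GRCh38.p14, with windows for 15101 genes. No test between groups was possible. The members and gene lists were chosen with earlier results of these data known. Named were the 10 strongest members overall and at gene ends, listed genes with a member at an end, up to 2 genes per list (more where tied) with at least 2 members, the 10 genes with the most members (with a tie, 11), the top 5 windows, the 3 widest members and those nearest the limits. Other names followed after their values were seen. A few genes and gene lists that the rule names are not reported here. The alternatives were merging within 500 bp, 50% coverage of the shorter peak, −log10 q of at least 10, equal numbers of peaks, skipped numbers kept, chromosome X, gene ends within 3 kb, all annotated genes and genes within 10 kb.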

Additional observations from a re-analysis of the deposited data

How the results depend on the processing

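No paired analysis was possible because each group has 1 peak list and no value per sample. The number of members was 6796 to 8229 under 6 alternatives and 4219 with −log10 q of at least 10 in the ancestral stiff list alone, which removes the weaker members. The members at listed genes then fell to 108 of 230, and stayed from 167 to 256 otherwise. The share of the list's peaks was 6.004% with merging within 500 bp, 7.02% with 50% coverage, 4.59% and 8.99% with −log10 q of at least 10 in the ancestral stiff list and in every list, 6.75% with 109578 peaks per list and 7.002% with skipped numbers kept. The share inside a gene was 48.0% with the q limit in every list, 46.8% with skipped numbers kept and 59.3% over all annotated genes. At gene ends it was 3.09% with merging within 500 bp, 2.80% and 4.44% with the 2 q limits, 4.19% with skipped numbers kept and 9.95% within 3 kb. Of 19 named regions, 17 were members with merging within 500 bp (not those near MZF1 and KHDC4), and all 19 under the other 5 alternatives run on them. Of the genes named for most members, 5 changed by over 1.5 times with the q limit in the ancestral stiff list: SMAD3 and PRAG1 fell to 2, CDC42EP3 to 3, LRRC7 to 4 and NAV2 to 5. LRRC7 and PRAG1 also fell to 4 with the q limit in every list, and CDC42EP3 to 4 with equal numbers of peaks. Chromosomes 4, 13 and 18 lay above the share of all chromosomes, and 17, 19 and 20 below it, under all 7 settings. The lists differ in depth, and a fold enrichment of 2.87 reaches a lower −log10 q-value in the 3 other lists. The part of depth in the comparison at weak peaks was not tested, and 1 list per group leaves replicate error unknown.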
